A study of Mus musculus with 12 samples.

Results

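High fat diet was compared with chow in mouse liver RNA sequencing over wild-type mice and mice labelled as carrying a liver knockout of Hnf4a, using 10 of the 12 libraries of the study. Hnf4a encodes hepatocyte nuclear factor 4 alpha, a nuclear receptor of hepatocytes. The 10 libraries were 3 wild-type high fat (WT HFD 1 to 3), 3 knockout high fat (KO HFD 1 to 3), 3 knockout vivarium chow (KO chow 1 to 3) and 1 wild-type vivarium chow (WT chow 1). The samples are given as liver and the 3 of each group as biological replicates. Not given in the sources used here are the strain, age and sex of the mice, the driver of the liver deletion, the length of feeding and the diets' composition. Where the labels do not say that replicates came from separate mice, the p-values measure only the spread between these samples.

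The libraries were chosen by the measured level of 1 gene. Cyp2c29, a cytochrome P450 of hepatocytes (chromosome 19, 39269405 to 39330713, plus strand), stood at 0.545 FPKM in WT chow 2 and 0.129 FPKM in WT chow 3, and these 2 libraries were left out because they fell under 10 FPKM. FPKM corrects a gene's fragment count for its length and for the size of the library. The kept library nearest to that limit was KO HFD 1, at 60.3 FPKM. WT chow 1 held 663 FPKM, KO chow 659, 701 and 539, WT HFD 176, 153 and 83.0, and KO HFD 60.3, 70.8 and 534. These values set which libraries were compared, so Cyp2c29 was not tested and entered no count below. Of reads on genes, 37.5% were mitochondrial in WT chow 3 and 3.39% in WT chow 2, against 5.14 to 6.26% in the 10. Both libraries removed were chow libraries. For any gene that goes with Cyp2c29, the chow level was therefore set in part by the choice. With all 12 libraries, 0 genes passed the diet test described below (limma, 430 genes at an unadjusted p under 0.05).

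The 10 libraries held 15705196 to 20311766 reads on genes, and Pearson's r of log2(FPKM + 1) between any pair ran from 0.931 to 0.988. Hnf4a itself (ENSMUSG00000017950, chromosome 2, 163506808 to 163572910) stood at 126 FPKM in WT chow 1, 158, 132 and 130 in KO chow, 133, 116 and 120 in WT HFD and 108, 98.8 and 138 in KO HFD. Each KO chow library lay above WT chow 1, while KO HFD averaged 115 ± 20.5 FPKM (SD, n = 3) against 123 ± 8.94 in WT HFD (SD, n = 3), with overlapping ranges. The transcript did not separate the labels, so every statement below on a genotype refers to the label only. Reads of intact exons and of cells other than hepatocytes enter this value, which is no measure of the deletion. By diet, Hnf4a differed by −0.21 on the log2 scale (SE 0.14, adjusted p = 0.405, limma), and its sign turned with all 12 libraries (1.10). The 12 hepatocyte markers in the table were all present, with summed levels of 37682 to 67478 FPKM.

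In hepatocytes, cholesterol is made from acetyl-CoA through the mevalonate pathway and the sterol ring enzymes. The transcription factor SREBP2 (gene Srebf2) drives these genes when sterol in the endoplasmic reticulum is low, together with its escort Scap, and the Insig proteins hold it back. SREBP1c (from Srebf1) drives fatty acid synthesis. The nuclear receptors CAR and PXR induce P450 enzymes of the Cyp2b, Cyp2c and Cyp3a families, which handle drugs and steroids.

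Both cholesterol synthesis genes that passed the diet test hold at least 1 of the searched motifs just before the RefSeq transcript start, and their sequences are shown for that reason. Windows from 250 bases before to 50 after each start were taken from RefSeq on GRCm38.p6, and the 250 bases before the start are printed 5′ to 3′ on the gene's strand. Capitals mark the motifs. Hmgcs1 encodes HMG-CoA synthase of the mevalonate pathway, and its printed stretch is chr13:119690101-119690350 on the plus strand. Sc5d encodes sterol-C5-desaturase, near the end of the pathway, and its stretch is chr9:42264301-42264550 on the minus strand.
Hmgcs1: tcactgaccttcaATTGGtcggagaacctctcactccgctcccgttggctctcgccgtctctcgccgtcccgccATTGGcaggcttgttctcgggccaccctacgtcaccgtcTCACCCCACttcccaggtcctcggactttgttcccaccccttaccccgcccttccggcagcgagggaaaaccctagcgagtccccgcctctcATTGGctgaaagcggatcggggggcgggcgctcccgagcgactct
Sc5d: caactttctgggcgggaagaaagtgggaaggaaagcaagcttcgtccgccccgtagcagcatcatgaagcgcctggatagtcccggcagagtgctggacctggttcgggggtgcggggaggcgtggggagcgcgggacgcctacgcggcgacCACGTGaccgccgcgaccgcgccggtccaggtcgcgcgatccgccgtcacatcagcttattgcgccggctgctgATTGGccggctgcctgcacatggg
In Hmgcs1 the sterol regulatory element TCACNCCAC begins 137 bases before the start. CCAAT, the box bound by NF-Y, lies on the opposite strand (printed as ATTGG) at 237, 176 and 45 bases before the start. In Sc5d the E-box CACGTG begins 98 bases before the start and 1 CCAAT lies on the opposite strand 24 bases before it. Both strands were searched, and the motifs share no letters in these stretches. Of the 20 cholesterol synthesis genes 15 had a window. Among these, 14 held CCAAT, 3 held CACGTG and 1, Hmgcs1, held TCACNCCAC. Over all 32851 windows the shares were 37.4% for CCAAT, 7.15% for CACGTG and 1.24% for TCACNCCAC, and over the 8635 tested genes with a window they were 42.7%, 12.0% and 1.6%. A match is a run of letters, and binding was not measured.

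The diet effect was the HFD minus chow coefficient of a limma fit on log2(FPKM + 1) with the genotype label as covariate, over 11870 genes with a mean of at least 0.5 FPKM. P-values were adjusted by Benjamini-Hochberg over all of them, with a threshold of 0.05. Fold changes on this scale understate the change of low genes. Because WT chow is 1 library, the coefficient weights the WT difference by 33.3% and the KO difference by 66.7%. High fat feeding went with lower transcripts of 2 inducible P450 enzymes (Cyp2c55 and Cyp2b10), the stearoyl-CoA desaturase Scd1 and 2 cholesterol synthesis enzymes (Hmgcs1 and Sc5d). In all, 15 genes passed, 12 lower and 3 higher on HFD. That is 0.126% of the genes tested, 0.101% lower and 0.0253% higher, and 2340 genes were at an unadjusted p under 0.05.

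A gene was called separated in both genotypes when every WT HFD library lay on 1 side of WT chow 1 and every KO HFD library lay on the same side of every KO chow library. All 15 genes met this condition, against 8.1% of all genes tested (2.17% higher, 5.93% lower). Separation and the diet test use the same values, so the count is a description. In 14 of the 15, all except Gm3699, the 6 HFD libraries also did not overlap the 4 chow libraries of both genotypes, against 1.03% of all genes higher and 3.81% lower.

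**Figure D1:**
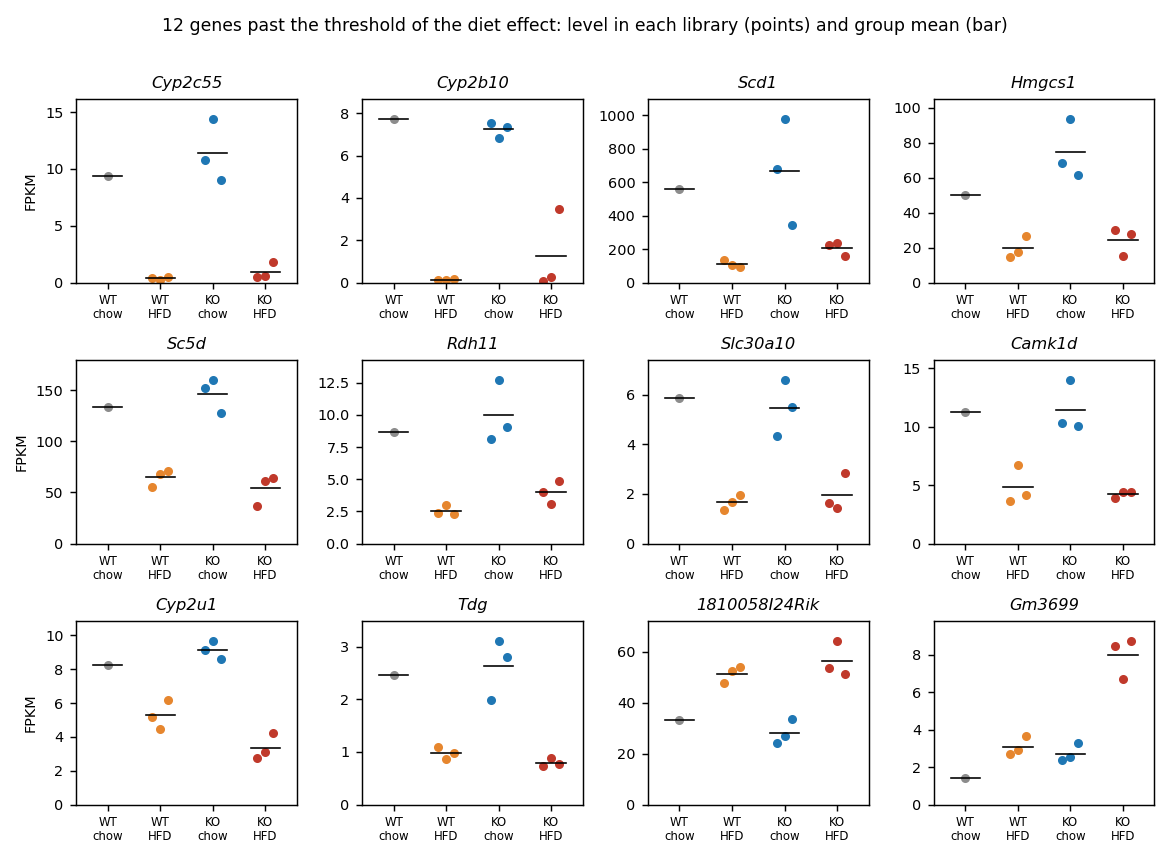
Level in FPKM (vertical axis, linear from 0) of 12 of the 15 genes past the threshold of the diet effect, in each library (points) by group, with the group mean as a bar. WT chow is 1 library. In the 10 lower genes drawn every HFD point lies under every chow point of the 10 libraries, and in 1810058I24Rik every HFD point lies above.

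Cyp2c55, a P450 induced through CAR and PXR (ENSMUSG00000025002, chromosome 19, 39007019 to 39042693), had the lowest estimate of the 15 on the log2(FPKM + 1) scale, while under limma-voom Cyp2b10 was lower (−4.62 against −4.07). Cyp2c55 stood at 9.43 FPKM in WT chow 1 and 10.8, 14.4 and 9.0 in KO chow, against 0.393, 0.258 and 0.513 in WT HFD and 0.525, 0.575 and 1.79 in KO HFD. Every HFD library was low and each of the 4 chow libraries kept was high, with KO HFD 3 the highest of the HFD libraries. The chow libraries left out, WT chow 2 and 3, held 0.133 and 0 FPKM, below all 6 HFD libraries. Its mean was 10.9 ± 2.43 FPKM on chow (SD, n = 4) and 0.676 ± 0.557 on HFD (SD, n = 6), 16.1 times lower. The log2 difference was −2.77 (SE 0.20, adjusted p = 2.44e-04, limma), from 9 to 582 reads per library. Leaving out each of the 10 libraries in turn kept this call in 10 of 10 fits, with differences from −2.95 to −2.68. It was not called with all 12 libraries (−1.71, adjusted p = 0.857).

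Cyp2b10, the enzyme most used as a readout of CAR (ENSMUSG00000030483, chromosome 7, 25897620 to 25926624), fell in 5 of the 6 HFD libraries to a few reads. It held 7.72 FPKM in WT chow 1 and 7.56, 6.84 and 7.38 in KO chow. WT HFD held 0.109, 0.119 and 0.178 FPKM, and KO HFD 0.0864, 0.245 and 3.49. KO HFD 3 lay between the other HFD libraries and the 4 chow libraries kept. The chow libraries left out, WT chow 2 and 3, held 0.166 and 1.93 FPKM, both under KO HFD 3. The log2 difference was −2.43 (SE 0.35, adjusted p = 0.0334, limma). It passed in 2 of the 10 fits that leave out 1 library, those without WT chow 1 and without KO HFD 3. With all 12 libraries Cyp2b10 stood at −1.81 and was not called (adjusted p = 0.857, limma). The near-identical members of the Cyp2b and Cyp2c families may share reads, so their single values are uncertain.

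Scd1, which makes oleate from stearate and is a target of SREBP1c (ENSMUSG00000037071, chromosome 19, 44394451 to 44407709), fell from 641 ± 263 FPKM on chow (SD, n = 4) to 159 ± 59.0 on HFD (SD, n = 6), 4.02 times lower. The chow libraries held 559 FPKM in WT and 682, 977 and 346 in KO. WT HFD held 137, 107 and 93.4 FPKM, and KO HFD 223, 235 and 161. Among the 10 libraries the diets did not overlap, and KO chow 3 was the lowest chow library kept. Of the chow libraries left out, WT chow 2 held 200 FPKM, within the HFD range, and WT chow 3 held 8617 FPKM. The log2 difference was −1.83 (SE 0.28, adjusted p = 0.0447, limma), and it passed in 2 of 10 fits, without WT chow 1 and without KO chow 3. With all 12 libraries Scd1 stood at −2.36 and was not called (adjusted p = 0.857, limma).

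Hmgcs1 (ENSMUSG00000093930, chromosome 13, 119690462 to 119708086) fell from 50.3 FPKM in WT chow 1 and 68.6, 93.5 and 61.4 in KO chow to 14.8, 17.6 and 26.4 in WT HFD and 30.4, 15.2 and 27.7 in KO HFD. All 6 HFD libraries lay under all 4 chow libraries. The log2 difference was −1.52 (SE 0.23, adjusted p = 0.0408, limma), and 3 of 10 fits that leave out 1 library kept it (without WT chow 1, WT HFD 3 and KO HFD 3). Sc5d (ENSMUSG00000032018, chromosome 9, 42254177 to 42264300) fell from 134 FPKM in WT chow 1 and 152, 160 and 128 in KO chow to 54.9, 67.7 and 71.2 in WT HFD and 36.8, 61.0 and 64.4 in KO HFD. For Sc5d too the groups did not overlap. Its difference was −1.32 (SE 0.18, adjusted p = 0.0262, limma), kept in 4 of 10 fits (without WT chow 1, WT HFD 3, KO HFD 1 and KO HFD 3). With all 12 libraries Sc5d stood at 0.01, of the opposite sign, and Hmgcs1 at −1.45 (adjusted p = 0.857), neither of them called.

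Enzymes, a transporter and a kinase of other pathways fell as well. Rdh11, a retinol dehydrogenase, fell from 8.65 FPKM in WT chow 1 and 8.16, 12.7 and 9.10 in KO chow to 2.39, 2.98 and 2.34 in WT HFD and 3.99, 3.09 and 4.90 in KO HFD (log2 difference −1.23, SE 0.16, adjusted p = 0.0262, limma). Slc30a10, a manganese exporter, averaged 5.57 ± 0.937 FPKM on chow (SD, n = 4) and 1.81 ± 0.542 on HFD (SD, n = 6), a log2 difference of −1.22. Camk1d, a calcium- and calmodulin-dependent kinase, averaged 11.4 ± 1.79 and 4.53 ± 1.13 FPKM, a difference of −1.19. Each of these 3 lay lower in every HFD library than in the 4 chow libraries kept, and each passed in 4 of the 10 fits without 1 library. For Rdh11 and Slc30a10 these were the fits without WT chow 1, WT HFD 3, KO chow 1 or KO HFD 3, and for Camk1d those without WT chow 1, WT HFD 2, WT HFD 3 or KO HFD 3. In WT chow 2 and 3, which were left out, Camk1d held 0.168 and 0.192 FPKM and Slc30a10 0.182 and 0 FPKM, below every HFD library. With all 12 libraries the difference was −0.05 for Camk1d and −0.37 for Slc30a10.

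Tdg, a DNA glycosylase of base excision repair, averaged 2.59 ± 0.482 FPKM on chow (SD, n = 4) and 0.888 ± 0.129 on HFD (SD, n = 6), a log2 difference of −0.94. Cyp2u1, a P450 that hydroxylates fatty acids, averaged 8.90 ± 0.615 FPKM on chow and 4.32 ± 1.27 on HFD, a difference of −1.01. The adjusted p of these genes was 0.0262 and 0.0447 (limma), in the order given. In both the highest HFD library lay under the lowest chow library. Without WT chow 1 and without KO HFD 3 both still passed. Of the other 8 fits that leave out 1 library, Tdg passed without WT HFD 3 and without KO chow 1, and Cyp2u1 without WT HFD 3. With all 12 libraries Cyp2u1 stood at −0.45.

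Markers of stratified epithelium moved with the diet by estimate. Of 12 such markers 7 were tested, all 7 were lower on HFD by estimate, 5 were separated in both genotypes (5.93% of all genes separated lower) and 0 passed the diet test. In KO HFD the 12 markers summed to only 1.98 to 3.65 FPKM. A marker that passed the filter of 0.5 FPKM only through the chow libraries had to be lower, so these counts are a description. Krt14, a keratin of the basal layer, held 7.52 FPKM in WT chow 1 and 3.54, 6.78 and 2.92 in KO chow. In WT HFD it held 4.4, 0.101 and 2.68 FPKM, and in KO HFD 0, 0.0922 and 0. Its log2 difference was −2.09 (adjusted p = 0.0923, limma). The summed level of the 12 markers ran from 9.83 to 24.3 FPKM on chow and from 1.98 to 16.1 FPKM on HFD. The part of these cells in the diet effects was not tested. In bulk RNA, fewer cells of a type and less RNA per cell cannot be told apart.

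Of the genes that rose, 2 carry clone or predicted names. The noncoding RNA 1810058I24Rik averaged 29.4 ± 4.82 FPKM on chow (SD, n = 4) and 53.9 ± 5.50 on HFD (SD, n = 6), a log2 difference of 0.86 (SE 0.14, adjusted p = 0.0463, limma). It passed in 1 of the 10 fits, without WT chow 1. The pseudogene Gm3699 rested on 2 to 12 reads per library. It held 1.39 FPKM in WT chow 1, 2.68, 2.93 and 3.65 in WT HFD, 2.38, 2.53 and 3.26 in KO chow and 8.49, 6.69 and 8.71 in KO HFD (1.10, SE 0.15, adjusted p = 0.0262, limma), so that WT HFD overlapped KO chow. With all 12 libraries its difference was 0.24. In the count model of limma-voom on the recovered reads it did not pass (adjusted p = 0.158), while the other 14 did.

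Fewer than 5 named genes passed as higher, so the next ones by p are given as values, with none past the threshold. Rfc2, a subunit of the clamp loader of DNA replication, averaged 14.2 ± 0.788 FPKM on chow (SD, n = 4) and 22.6 ± 3.48 on HFD (SD, n = 6), a log2 difference of 0.66 (adjusted p = 0.0718, limma). Rnaseh2b, a subunit of ribonuclease H2, stood at 1.34 ± 0.219 and 2.62 ± 0.586 FPKM (0.68, adjusted p = 0.0897). Fabp7, a fatty acid-binding protein, stood at 0.931 ± 0.210 and 2.84 ± 1.03 FPKM (0.98, adjusted p = 0.113). Pld4, a phospholipase D family member, had a difference of 0.69 (adjusted p = 0.118). Tmigd1 and the chemokine Ccl24 had differences of 0.59 and 0.72. Their chow means, 0.165 and 0.434 FPKM, lay under the filter of 0.5 FPKM. Both genes passed it only through the HFD libraries, so their levels are a description and no test is quoted. These 6 were separated in both genotypes, against 2.17% of all genes separated higher. They were taken by smallest p from the same values, so for all 6 the separation is a description too. The last 3 of the rule, Prss2, Try5 and Cela2a, are genes of the exocrine pancreas and are taken up with the comparison of the genotypes.

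The count of 15 depended on single libraries. It was 1022 without WT chow 1, the only wild-type chow library, after which the coefficient rests on the KO libraries alone. It was 36 without KO HFD 3, of which 13 were among the 15. Leaving out WT HFD 1, 2 or 3 gave 1, 3 and 11 genes, leaving out KO chow 1, 2 or 3 gave 4, 1 and 3, and leaving out KO HFD 1 or 2 gave 2 and 1. Of the 15, only Cyp2c55 passed in all 10 of these fits. Median-of-ratios scaling and quantile normalization each gave 1 gene, and the fit with no filter on low values gave 2. The KO libraries alone, among which Cyp2c29 removed none, gave 33 genes, 7 lower and 26 higher. The filter of that fit admits genes at 0 FPKM in every KO chow library, such as Prss2 and Try5, which had to be higher. How many of the 26 in that fit are such genes was not counted. Of the 15, 4 passed there, namely Cyp2c55 (adjusted p = 0.00717), Gm3699 (0.0327), Camk1d (0.0336) and Cyp2u1 (0.0336), all by limma, and the 8 others described above stood between 0.0637 and 0.0859. The 4 WT libraries alone gave 0 genes (limma, 473 at an unadjusted p under 0.05).

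**Figure D2:**
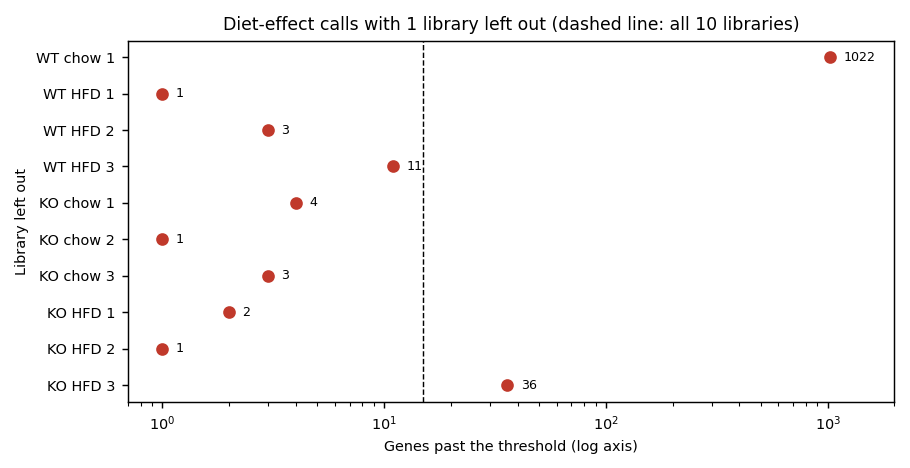
Number of genes past the threshold of the diet effect (horizontal log axis) when 1 of the 10 libraries was left out (vertical axis, 1 row per library). The dashed line marks the 15 genes found with all 10; the count is 1022 without WT chow 1, 36 without KO HFD 3 and 1 to 11 without any other library.

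Cholesterol synthesis genes lay lower on HFD as a list in both genotypes. All 20 members were tested, 2 fell (0.101% of all genes fell) and 20 of 20 lay lower by estimate. Their median log2 difference was −1.15, against −0.04 over all genes tested, with −1.39 in WT and −1.22 in KO. Of the 20, 12 (60%) were separated in both genotypes and lower, against 5.93% of all genes. Within KO 8 of 20 fell in the fit with 4 group means, where 6.85% of all genes fell. That fit takes its spread from the WT libraries too. With the KO libraries alone 1 member of all the pathway lists fell, Cyp2c55, and Hmgcs1 (adjusted p = 0.0753, limma) and Sc5d (0.0637) did not pass. The list median stayed negative in every alternative examined for it, at −0.55 with all 12 libraries. The gene list was chosen with earlier results of these data known, and no set test was made.

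Among the mevalonate enzymes, Idi1, the isopentenyl diphosphate isomerase, had the lowest estimate of the list, −2.26 (adjusted p = 0.0704). It held 10.6 FPKM in WT chow 1 and 16.2, 21.4 and 15 in KO chow, against 0.881, 2.32 and 2.91 in WT HFD and 1.09, 1.31 and 7.82 in KO HFD. KO HFD 3 was the highest HFD library. Mvd, the mevalonate diphosphate decarboxylase, was separated in both genotypes at −1.58 (adjusted p = 0.104). Fdps, the farnesyl diphosphate synthase, held 124 FPKM in WT chow 1 and 100, 171 and 142 in KO chow, against 23.4, 35.7 and 37.3 in WT HFD and 48.5, 26.2 and 155 in KO HFD (−1.44, adjusted p = 0.164). In Fdps KO HFD 3 lay within the range of KO chow.

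Of the enzymes after squalene, Sqle (squalene epoxidase) held 5.37 FPKM in WT chow 1 and 11.9, 16.3 and 12.2 in KO chow, against 0.971, 0.973 and 2.46 in WT HFD and 1.31, 1.12 and 8.04 in KO HFD (−1.82, adjusted p = 0.113, limma). Cyp51, the lanosterol demethylase, held 26.6 FPKM in WT chow 1 and 39.7, 39.0 and 35.1 in KO chow, against 5.35, 6.39 and 6.97 in WT HFD and 5.57, 5.53 and 26.4 in KO HFD (−1.90, adjusted p = 0.0890). Both were separated in both genotypes and neither passed. Nsdhl (−1.58), Msmo1 (−1.49), Lss (−0.97), Dhcr7 (−1.11) and Hsd17b7 (−1.03) were separated as well, with an adjusted p from 0.103 to 0.123. Ebp, the most abundant member not past the threshold, stood at 127 ± 7.51 FPKM on chow (SD, n = 4) and 120 ± 18.2 on HFD (SD, n = 6), a difference of −0.06 whose sign turned in 4 alternatives.

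KO HFD 3 stood apart within this list. Relative to the chow mean of the same genotype, the list median was −1.51, −1.12 and −1.05 in WT HFD 1 to 3, −1.43 and −1.53 in KO HFD 1 and 2, and −0.41 in KO HFD 3. KO HFD 3 was the highest of the KO HFD libraries for 18 of the 20 genes. Over all genes tested the same library had a median of −0.20, the lowest of the 6. Without it the list median was −1.39.

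**Figure D3:**
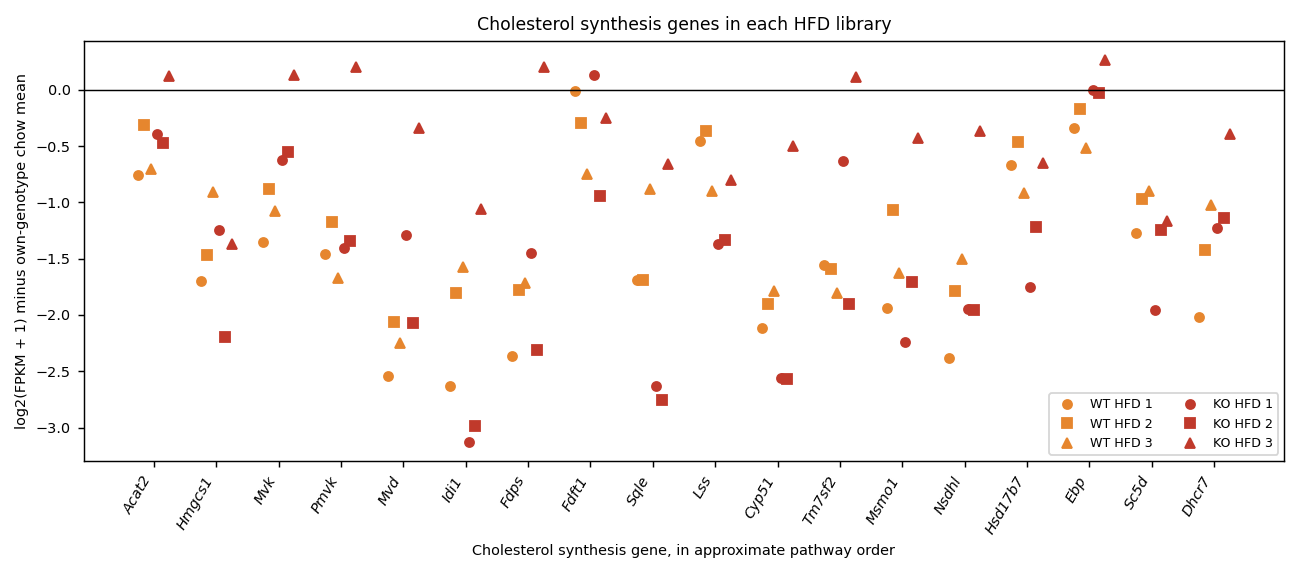
Difference of each HFD library from the chow mean of its own genotype on the log2(FPKM + 1) scale (vertical axis) for 18 of the 20 cholesterol synthesis genes in approximate pathway order (horizontal axis); WT chow is 1 library. Circles, squares and triangles are replicates 1, 2 and 3, orange is WT and red is KO. The red triangles (KO HFD 3) are the highest KO HFD points for 16 of the 18 genes drawn.

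The SREBP control and LDL uptake list had 0 of 12 tested members past the threshold and a median of −0.53 (−0.23 in WT, −0.72 in KO). Separated and lower were 6 (50%, against 5.93% of all genes), among them Srebf2 (log2 difference −0.67, adjusted p = 0.131), Scap (−0.52, 0.150), Insig1 (−1.10, 0.178), Insig2 (−0.81, 0.164) and the sterol carrier Stard4 (−1.17, 0.0979), all by limma. Srebf1, the most abundant member, stood at 93.3 ± 24.8 FPKM on chow (SD, n = 4) and 109 ± 34.2 on HFD (SD, n = 6), a difference of 0.18 (adjusted p = 0.728).

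In lipogenesis, 1 of 21 tested genes fell (Scd1, where 0.101% of all genes fell) and 7 were separated and lower (33.3%, against 5.93% of all genes), with a list median of −0.51 (−0.32 in WT, −0.63 in KO). Fasn, the fatty acid synthase, held 35.7 FPKM in WT chow 1 and 30.4, 43.9 and 30.7 in KO chow, against 10.6, 14.0 and 9.87 in WT HFD and 20.1, 10.2 and 19.5 in KO HFD. The groups did not overlap, with a log2 difference of −1.23 (adjusted p = 0.0704, limma). Acss2, the acetyl-CoA synthetase, stood at −0.98 (0.0704), and the elongases Elovl3, Elovl5 and Elovl6 at −1.17 (0.123), −0.87 (0.0890) and −0.72 (0.168). Fads2, a desaturase of polyunsaturated fatty acids and the most abundant member not past the threshold, stood at −0.13, with 0.54 in WT and −0.47 in KO (interval of the interaction −1.83 to −0.19, before adjustment).

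P450 and xenobiotic genes, without Cyp2c29, had 2 of 22 past the threshold (Cyp2c55 and Cyp2b10, where 0.101% of all genes fell). In this list 9 were separated and lower (40.9%, against 5.93% of all genes) and 1 separated and higher, against 2.17% (Por, the P450 reductase, 0.46, adjusted p = 0.212, limma). The median was −0.46, with −0.06 in WT and −0.69 in KO. Cyp3a11, the main PXR-inducible enzyme, held 2365 FPKM in WT chow 1 and 3333, 2087 and 3546 in KO chow, against 230, 131 and 302 in WT HFD and 67.2, 194 and 1855 in KO HFD. Its estimate was the lowest of the list, −3.38 (SE 0.73, adjusted p = 0.118), and it did not pass. KO HFD 3 was the highest of the HFD libraries. The other separated members were Cyp3a59 (−2.0), Cyp3a25 (−1.20), Cyp2c54 (−1.31), Cyp2c37 (−1.01), Cyp2c50 (−0.94) and the carboxylesterase Ces2a (−1.57), with an adjusted p from 0.0890 to 0.193. Cyp2e1, the most abundant, stood at 4032 ± 283 FPKM on chow (SD, n = 4) and 3835 ± 1360 on HFD (SD, n = 6). This list depends on the choice of libraries, since its median was 1.09 with all 12, of the opposite sign.

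Another 13 lists had 0 members past the threshold. Medians over both genotypes lay between −0.38 and 0.41 in them, against −0.04 over all genes tested.

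Over all genes tested 44.3% were higher and 55.7% lower by estimate, the shares to set beside the counts that follow. Bile acid synthesis and transport had a median of −0.38 (19 tested, 14 lower by estimate). Fatty acid oxidation and PPAR alpha targets stood at 0.18 (19 of 26 higher by estimate), lipid droplet and fat storage at 0.22 (17 of 20 higher) and sterol export at 0.20 (7 of 11 higher). In the first of these 3, KO HFD 1 was the highest KO HFD library for 22 of 26 genes. Cell cycle genes were higher by estimate in 16 of 16 tested, with a median of 0.36 and library medians from −0.13 in KO HFD 3 to 1.08 in KO HFD 1. Interferon-stimulated genes were higher by estimate in 17 of 19, with a median of 0.33. By genotype the median was 0.15 in WT, where 8 of 19 were lower, and 0.41 in KO, where 1 was lower. Library medians were −0.07, 0.05 and 0.51 in WT HFD 1 to 3 and 0.47, 0.65 and −0.13 in KO HFD 1 to 3. The 2 genotypes gave medians of opposite sign for the acute phase list (−0.21 in WT, 0.79 in KO) and for the circadian clock list (0.27 in WT, −0.44 in KO). The hour of collection is not given in the sources used here. With all 12 libraries the bile acid (0.93) and circadian (0.18) medians turned positive, and those of fatty acid oxidation (−0.16), lipid droplets (−0.38) and the cell cycle (−0.02) turned negative.

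**Figure D4:**
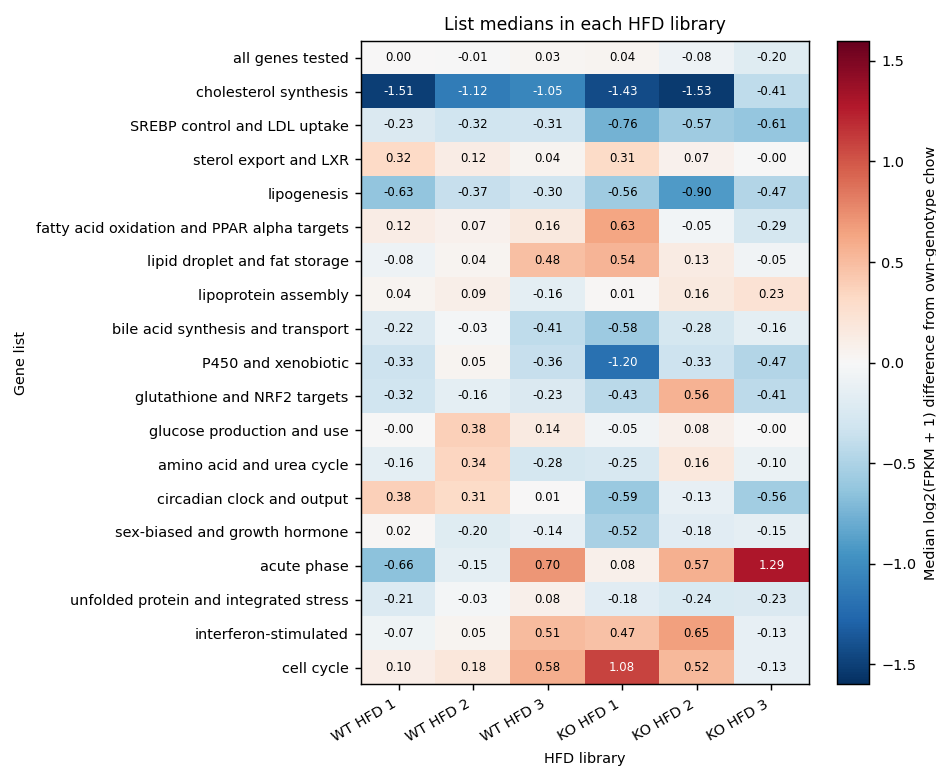
Median log2(FPKM + 1) difference from the chow mean of the same genotype (colour and printed value) for each gene list (rows) in each HFD library (columns); WT chow is 1 library. Cholesterol synthesis is the row with values from −1.53 to −0.41, SREBP control and lipogenesis are below 0 in all 6 columns, and the acute phase row runs from −0.66 to 1.29.

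Within the genotypes the counts were uneven. In the fit with 4 group means, 3 genes passed within WT (0.0253% of genes tested), all lower, namely Cyp2c55, Ctrb1 and Dmbt1. Within KO 1027 passed (8.65%), 813 lower (6.85%) and 214 higher (1.8%). Among the 214 were 13 of 14 tested exocrine pancreas markers and 5 of 5 tested intestine markers. At least 7 of the 214 averaged under 0.5 FPKM outside KO HFD and passed the filter only through it. Such genes had to be higher, so their calls within KO are a description. Median-of-ratios scaling gave 467 higher and 545 lower within KO, quantile normalization 219 and 403, and TPM 155 and 2141. It was 19 higher and 2 lower without KO chow 1, 18 and 1 without KO chow 2, and 14 and 8 without KO HFD 1. The KO libraries fitted alone gave 26 higher and 7 lower. With 1 library left out the count within KO ran from 19 to 1601 and that within WT from 1 to 8. The WT difference sets 3 libraries against 1, whose spread is assumed from the rest, and the 2 contrasts share no library. Over all genes tested 51.2% had the same sign in both genotypes, with Pearson's r of 0.17 and Spearman's rho of 0.09 across genes, which are not independent replicates. Of the 15 genes 15 had the same sign, which their choice largely fixes, and 15 passed within KO in this fit.

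The interaction, KO minus WT diet difference, passed for 10 genes (0.0842%), all higher in KO and none among the 15. For the 15 genes the 95% interval of the interaction held 0 in all except Cyp2u1 (−0.66, interval −1.27 to −0.04, before adjustment). The intervals were wide, such as −0.73 to 1.17 for Cyp2c55, −0.58 to 2.06 for Scd1 and −1.37 to 0.87 for Hmgcs1. With 1 WT chow library, the absence of a call does not show that the genotypes respond alike.

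The filter on low values kept 9 of the 10 through the group in which they are highest: 7 through KO HFD and 2 through WT chow 1, with means under 0.5 FPKM in the other libraries. Such genes had to differ, so for these 9 the levels are a description and no interaction p-value is quoted. The call of Dmbt1 within WT given above is a description too, since Dmbt1 passed the filter through WT chow 1. The exception is Ctrb1, a chymotrypsinogen of the exocrine pancreas. It was at 34.3, 18.5 and 20.6 FPKM in KO HFD, at 4.47 in WT chow 1 and at 0 in the other 6 libraries (log2 interaction 7.07, limma). Its level outside KO HFD came from WT chow 1 alone. WT HFD and KO chow were at 0 without spread, so no test is quoted for Ctrb1 either. Its call within WT given above is a description as well. The trypsinogen Prss2 was at 11, 7.36 and 7.44 FPKM in KO HFD and at 0 in the other 7 libraries, and Try4 at 11.1, 8.47 and 5.23 FPKM in KO HFD and at 0 in the other 7. Against groups at 0 the log2 values depend on the added 1 FPKM and are no bound. The trypsinogens are near-identical genes that may share reads.

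Dmbt1 and Lypd8, which are expressed in gut epithelium, were high in WT chow 1, the only wild-type chow library. Dmbt1 held 17.2 FPKM there, 0.380, 0.476 and 0.318 FPKM in KO HFD and at most 0.126 FPKM in the other 6 libraries. Lypd8 held 4.77 FPKM in WT chow 1, 0.995, 1.33 and 0.0929 in KO HFD and 0 elsewhere. Summed exocrine pancreas markers were 130 to 175 FPKM in KO HFD, 62.5 to 84.0 in WT HFD, 40.4 to 68.3 in KO chow and 95.8 in WT chow 1, with 1 of 15 (Amy2a5) at 0 in all 10 libraries. Most of the sum outside KO HFD was Cela1, at 39.2 to 90.1 FPKM. Cela2a held 4.85, 3.17 and 3.6 FPKM in KO HFD, while the remaining 7 libraries held 0.357 to 0.736. Intestine markers, 11 of 12 in the table, summed to 73.2 to 143 FPKM in KO HFD, 79.7 to 110 in WT HFD, 34.2 to 46.8 in KO chow and 75.5 in WT chow 1. The members did not follow this sum in WT. Of the 5 tested, 4 were lower on HFD by estimate in WT, where the median log2 difference was −0.10, against 1.61 in KO. The part of these cells in the results was not tested.

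**Figure D5:**
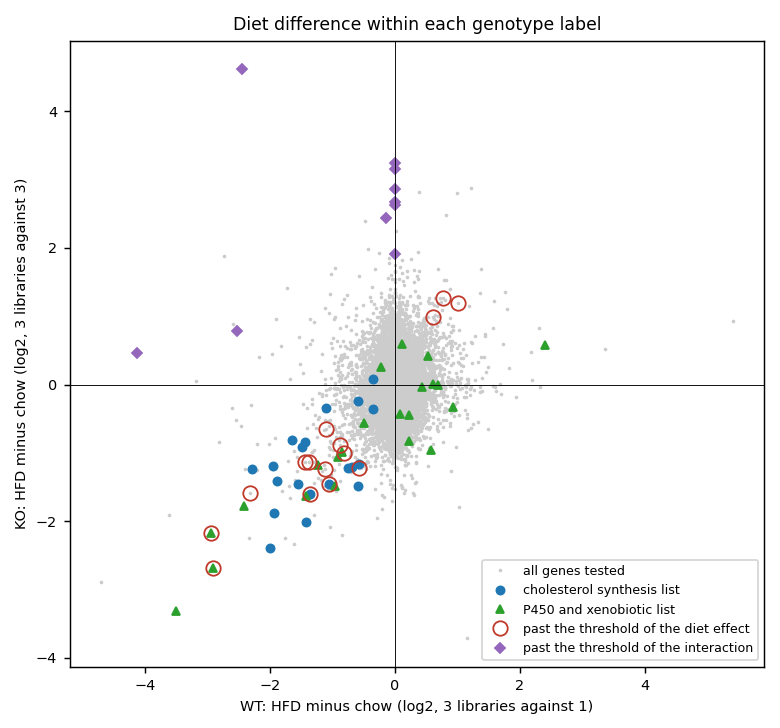
HFD minus chow log2 difference in KO (vertical axis, 3 libraries against 3) against that in WT (horizontal axis, 3 libraries against 1) for the 11870 genes tested (grey), with the cholesterol synthesis list in blue, the P450 and xenobiotic list in green, the 15 genes of the diet effect ringed in red and the 10 interaction genes in purple. The ringed genes lie at the lower left and upper right, and 7 of the purple genes lie near 0 in WT and at 1.91 or more in KO.

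Other marker lists moved with the diet in part. Heart and skeletal muscle markers summed to 2.98 to 5.15 FPKM in KO HFD and 10.8 to 33.8 in KO chow, and to 15.5 to 142 in WT HFD against 43.3 in WT chow 1. Kupffer cell and macrophage markers were higher by estimate in 10 of 12 tested (44.3% of all genes), with a median of 0.61. Marco (−0.89) and Timd4 (−0.14) were lower. Sums of these markers were 177 to 294 FPKM in KO HFD and 103 to 148 in KO chow. In WT HFD 1 to 3 the sums were 153, 173 and 418 FPKM against 198 in WT chow 1, so that only WT HFD 3 lay above it. Adipocyte markers summed to 11.6 to 84.2 FPKM on HFD and 9.99 to 13.5 on chow. No marker of these 3 lists passed the diet test, against 0.126% of all genes. The part of other cells in the diet effects was not tested. For the 12 hepatocyte markers the median was −0.11, with 0 past the threshold.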

How the data were processed

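Total RNA of 12 mouse liver samples was sequenced. The deposited table gives FPKM for 35275 genes with coordinates on GRCm38, computed by the authors, per the file headers. The submitters' processing notes name the tools DESeq2 (with a version of 2), HTSeq 0.6.1, STAR, TopHat and CASAVA. Not given in the sources used here are the aligner behind these values, the annotation release, strand setting and filters. Columns were matched to samples by title, and 27 symbols turned into dates were restored from identifiers. FPKM times gene length gave whole reads for 100% of values (tolerance 0.1 read), and these were used in the limma-voom alternative.

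Values were taken as log2(FPKM + 1). Genes with a mean of at least 0.5 FPKM over the 10 libraries were fitted with trended empirical Bayes in limma 3.58.1 under R 4.3.3, additively for diet and genotype label (7 residual degrees of freedom) and with 4 group means for the contrasts within genotypes and the interaction. The mean chi-square per gene between 2 libraries of a group was at least 39.2, so no pair agreed within sampling noise and none was counted as 1 sample. The script was tested on simulated data. Figures used matplotlib 3.10.9 in Python 3.11.15.

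Named were genes past the threshold that are separated in both genotypes and average at least 1 FPKM on the higher diet, the 10 smallest p where fewer than 5 passed in a direction, up to 6 members past the threshold and the most abundant other member of each list that had a member past it, up to 5 interaction genes per direction, and Hnf4a and Cyp2c29. Some genes, 3 of the 15 past the diet threshold among them, are not reported here. Other members named in the text were chosen after their values were seen. The libraries, the 18 pathway lists (363 genes), the 12 marker lists (150 genes) and the tests were chosen with earlier results of these data known. Alternatives covered pseudocount, filter, scaling, libraries, covariate, replicate block, library weights, moderation and leaving out each library.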

Additional observations from a re-analysis of the deposited data

Results flagged for a closer look

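Among the described genes that passed the diet test, 4 had 1 library far from the others of its diet. Cyp2c55 at 1.79 FPKM and Cyp2b10 at 3.49 FPKM in KO HFD 3 were the highest of the 6 HFD libraries for these genes, Camk1d at 6.75 FPKM in WT HFD 2 was likewise, and 1810058I24Rik stood at 64.2 FPKM in KO HFD 2. Of such groups about 1 in 20 is marked by chance. The 42 groups examined also include those of the next higher genes by p, none of them past the threshold.

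The log2 interaction values flagged were those of Ctrb1 (7.07), Dmbt1 (4.59), Lypd8 (3.31), Prss2 (3.24) and Try4 (3.16), from limma. WT chow 1 alone stands for wild-type chow in each of these genes. All except Ctrb1 passed the filter on low values only through the group in which they are highest. These values are therefore a description and no test of a difference between the genotypes.

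The 2 libraries that were left out held markers of other cells above the range of all 10 libraries used, chow and HFD alike. Adipocyte markers summed to 115 FPKM in WT chow 2 and 11854 FPKM in WT chow 3, lymphocyte and antigen presentation markers to 336 FPKM in WT chow 2, and stellate cell and fibroblast markers to 381 FPKM in WT chow 3. Hepatocyte markers summed to 29565 FPKM in WT chow 2 and 124 FPKM in WT chow 3.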

How the results depend on the processing

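The number of genes past the diet threshold (15) was 2 with no filter on low values, 8 with the filter over 12 libraries, 1 with median-of-ratios scaling, 1 with quantile normalization, 0 with all 12 libraries, 33 with KO libraries only, 0 with the WT libraries of the 10 only, 29 without the genotype covariate, 613 with library weights and 28 with limma-voom. TPM gave 18 (1 higher and 17 lower, with the median of all genes at −0.13), equal weighting of the genotypes 21 (9 higher and 12 lower) and voom 11 higher and 17 lower. Leaving out 1 library gave 1 to 1022. The genes also separated in both genotypes (15) were 2 with no filter, 8 with the filter over 12 libraries, 1 with either of the median-of-ratios and quantile scalings, 0 with all 12 libraries, 29 without the covariate and 330 with library weights, and 1 to 1021 with 1 library left out. Interaction genes (10) were 167 with no filter, 2 at a mean of at least 2 FPKM, 20 with median-of-ratios, 23 with quantile, 23 with library weights, 3 with voom and 5 to 14 with 1 library left out. Within WT, 3 became 186 with no filter, 0 at a mean of at least 2 FPKM, 1 with the filter over 12 libraries, 0 with all 12 libraries and 1 to 8 with 1 library left out. Within KO, 1027 became 120 with no filter, 2296 with TPM, 622 with quantile, 19 with all 12 libraries, 1940 with library weights and 19 to 1601 with 1 library left out. List members past the threshold (6) were 1 with no filter, 2 with the filter over 12 libraries, 1 with median-of-ratios, 1 with quantile, 0 with all 12 libraries, 2 with KO libraries only, 0 with WT libraries only, 13 without the covariate, 54 with library weights and 1 to 33 with 1 library left out. The cause of these changes was not tested.

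Replicate numbers did not pair the samples: 1 of 9 correlations of same-numbered deviations was over 0.1 (−0.15 to 0.13) and 3 of 9 libraries correlated best with their own number. The replicate block gave 15 diet genes (10 of them among the 15), 3 interaction genes, 1 within WT and 366 within KO.

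Signs turned with all 12 libraries for Sc5d (0.0057), Ebp (0.58), Fads2 (0.87), Cyp2e1 (1.94), Hnf4a (1.10), Stard4 (0.17), Cyp3a25 (1.47), Ces2a (1.03), Cyp2c50 (2.05), Fads1 (0.27), Cyp2c54 (1.38) and Cyp2c37 (1.63). Ebp turned also with median-of-ratios (0.015) and with KO libraries only (0.080), and ran from −0.14 to 0.080 with 1 library left out (0.080 without WT chow 1). Fads2 turned with WT libraries only (0.54) and equal weight (0.037), and ran from −0.47 to 0.050 with 1 library left out (0.050 without KO chow 1). Cyp2e1 turned also with WT libraries only (0.22). Depth limits low genes such as Gm3699 and Cyp2b10.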
